A study of Drosophila melanogaster with 3 samples.

Results

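The long non-coding RNA genes listed as targets of FMRP, the fly fragile X protein, were 36 of the 1829 gene names on the authors' target list. They were chosen by name alone, as every name that begins with lncRNA:, asRNA: or CR and digits, with the Uhg snoRNA host genes left out. By name, 33 are lncRNA genes, 2 are antisense RNA genes (asRNA:CR44894 and asRNA:CR45970) and 1 is CR33222, which the RefSeq gene table classes as a pseudogene. Both lists come from enhanced CLIP of whole adult Drosophila melanogaster, in which ultraviolet light links protein to RNA before FMRP is pulled down. The series holds 2 immunoprecipitates of FMRP on FLAG beads, labelled as intestinal progenitor cells, and 1 size-matched input labelled as all cells, each from 200 flies, 100 male and 100 female. The labels give no genotype, driver, age or treatment beyond ultraviolet exposure. Nor do they state what tag FMRP carried or where a tagged form was expressed.

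The deposited lists hold no value per library. A site is a position of 1 nt with a strand and a score that the authors gave without a stated unit, and a target gene is a name only. The depth is unknown, no library can be compared with another, and no number below has a spread between replicates. RNA abundance was not used here, and in whole animals fewer cells of a type and less RNA per cell cannot be told apart. Of 10 marker genes of intestinal progenitors, 7 were on the target list, among them esg with 77 sites, hdc with 313 and spdo with 5. The markers klu (1 site), N (2) and Su(H) (0) were not listed. Of all 13962 protein-coding genes, 1560 were targets (11.2%). Muscle markers were also listed, 5 of 5, as were 5 of 6 enterocyte, 3 of 4 enteroendocrine, 3 of 5 ovary, 3 of 4 fat body, 2 of 5 neuron, 1 of 4 testis and 0 of 4 haemocyte markers. Their part in the results below was not tested.

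Long non-coding RNAs are transcripts with no long open reading frame. Some act as RNA themselves, some are primary transcripts from which microRNA hairpins are cut, and many lie inside or against protein-coding genes. FMRP is best known as a repressor of the translation of mRNAs it binds.

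Each of the 36 genes held at least 2 sites within its span, and together they held 845 of the 60497 sites in the list (1.40%). The number per gene ran from 2 to 195 with a median of 12.5, and the 5 genes with most sites held 49.6% of the total. All sites lay on 1 strand in 33 genes (17 on plus and 16 on minus). Among protein-coding genes on the target list with a site, 1465 of 1559 had all sites on 1 strand (94.0%). The 3 genes with sites on both strands were lncRNA:CR44999, lncRNA:CR44357 and asRNA:CR44894, which span 94235 to 239347 nt and overlap several protein-coding genes. Chromosome X held 15 of the 36, 2L and 3L 6 each, 2R 5, 3R 3 and chromosome 4 1. No such count over all targets or all annotated genes is set beside it, so no chromosome can be called over-represented.

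Most of these sites were not in sequence that belongs to the non-coding gene alone. Of the 845 sites, 798 lay also in the span of a protein-coding gene (94.4%), and 24 lay in no other gene (2.84%). By gene, 23 of 36 shared a site with a protein-coding gene, against 252 of 1560 protein-coding targets that shared one with another protein-coding gene (16.2%). Every site was also in some other gene for 29 of 36, against 181 of 1560 protein-coding targets (11.6%). The gene table gives no strand, so the strand of a protein-coding neighbour was read from sites in its span that lie in no other gene, where there were at least 5 and at least 90% were on 1 strand. By this reading 361 sites lay on the strand of a protein-coding gene, 16 on the opposite strand, and for 401 the strand of the neighbour could not be read. A further 43 lay in the gene of a small RNA.

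**Figure D1:**
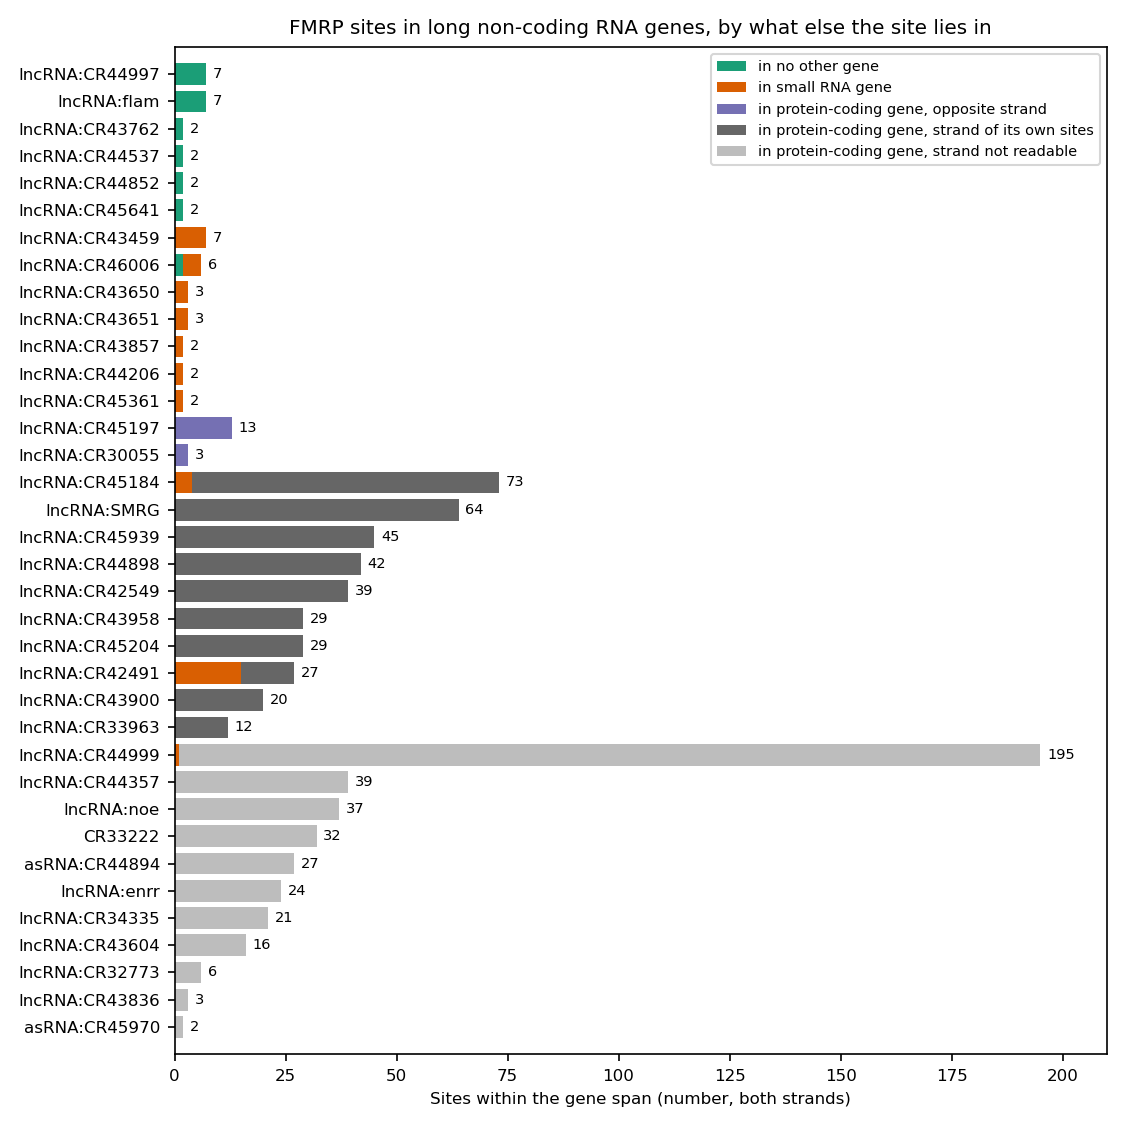
Number of FMRP sites within the span of each of the 36 long non-coding RNA genes (bar length, both strands), coloured by what else the site lies in. lncRNA:CR44999 stands at 195 sites, and green bars, for sites in no other gene, appear in 7 genes and reach 7 sites.

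The genes with sites outside any other gene were few and carried few contacts. In 6 genes every site was of this kind: lncRNA:CR44997 and lncRNA:flam with 7 each, and lncRNA:CR43762, lncRNA:CR44537, lncRNA:CR44852 and lncRNA:CR45641 with 2 each. flam is the locus of a transcript cut into piRNAs that silence retrotransposons in the somatic cells of the ovary. Its 7 sites covered consecutive bases from 21723650 to 21723656 on the plus strand of X, with scores from 2.79 to 10.2 and a median of 5.16. No other site fell in its span of 158841 nt. How reads that map to several copies of a repeat were treated is not given in the sources used here, and flam consists largely of transposon remnants.

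lncRNA:CR44997 had the highest median score of the 36 genes, 59.4. Its sites formed a pair of separate groups on the plus strand of X: 5 sites between 22657540 and 22657545 with a median score of 61.8 and a lowest of 0.262, and 2 at 22776269 and 22776270 with a median of 5.35. The scores of the whole list had a median of 2.78 and quartiles of 1.08 and 6.39, and 1.39% of its sites scored above 40. In lncRNA:CR44997 there were 4 such sites.

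The other genes of this kind span 680 to 1188 nt, and each had a single pair of neighbouring sites. lncRNA:CR43762 had scores of 10.5 and 23.2 at 21894298 and 21894299 on the plus strand of 2L. lncRNA:CR44852 had scores of 1.35 and 11.7 at 14532785 and 14532786 on the minus strand of the same chromosome arm. In these pairs the lower score was 1.35 to 10.5 and the higher 8.29 to 23.2, so each had a site above the upper quartile of the list. lncRNA:CR45641 on 3R scored 9.20 and 2.94, and lncRNA:CR44537 on 3L scored 2.99 and 8.29.

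Primary microRNA transcripts made up the next group. In 7 genes sites lay within a microRNA hairpin gene, and in 6 of these no site lay anywhere else. The 8 hairpins, each itself on the target list, held 23 sites. lncRNA:CR43459 had 4 sites between 10100079 and 10100082 on 3R in mir-277, a microRNA that controls the breakdown of branched-chain amino acids, and 3 between 10100950 and 10100952 in mir-34, known for its role in ageing of the brain. Its highest score, 86.5, was in mir-34 and was the highest score of all 36 genes. lncRNA:CR43650 had 3 sites in mir-8, a regulator of body growth of the miR-200 family. lncRNA:CR43651 had 3 in mir-14, with scores of 11.5, 31.7 and 28.4. lncRNA:CR43857 had 2 in mir-275, lncRNA:CR44206 2 in mir-184 and lncRNA:CR45361 2 in mir-1, the muscle microRNA.

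lncRNA:CR46006 differed from the other microRNA hosts in having sites outside its hairpin. It had 4 sites between 10365279 and 10365282 on the plus strand of 3L in mir-276a, with a highest score of 44.1, and 2 at 10325667 and 10325668 with a highest score of 12.1. The pair at 10325667 lay in no other gene. Median scores of the 7 hosts ran from 8.50 to 28.4, all above the upper quartile of the list. The 11 microRNA genes on the target list had a median of 3 sites, and 8 of them are the hairpins named here. These sites cannot be given to the long transcript rather than to the precursor cut from it.

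**Figure D2:**
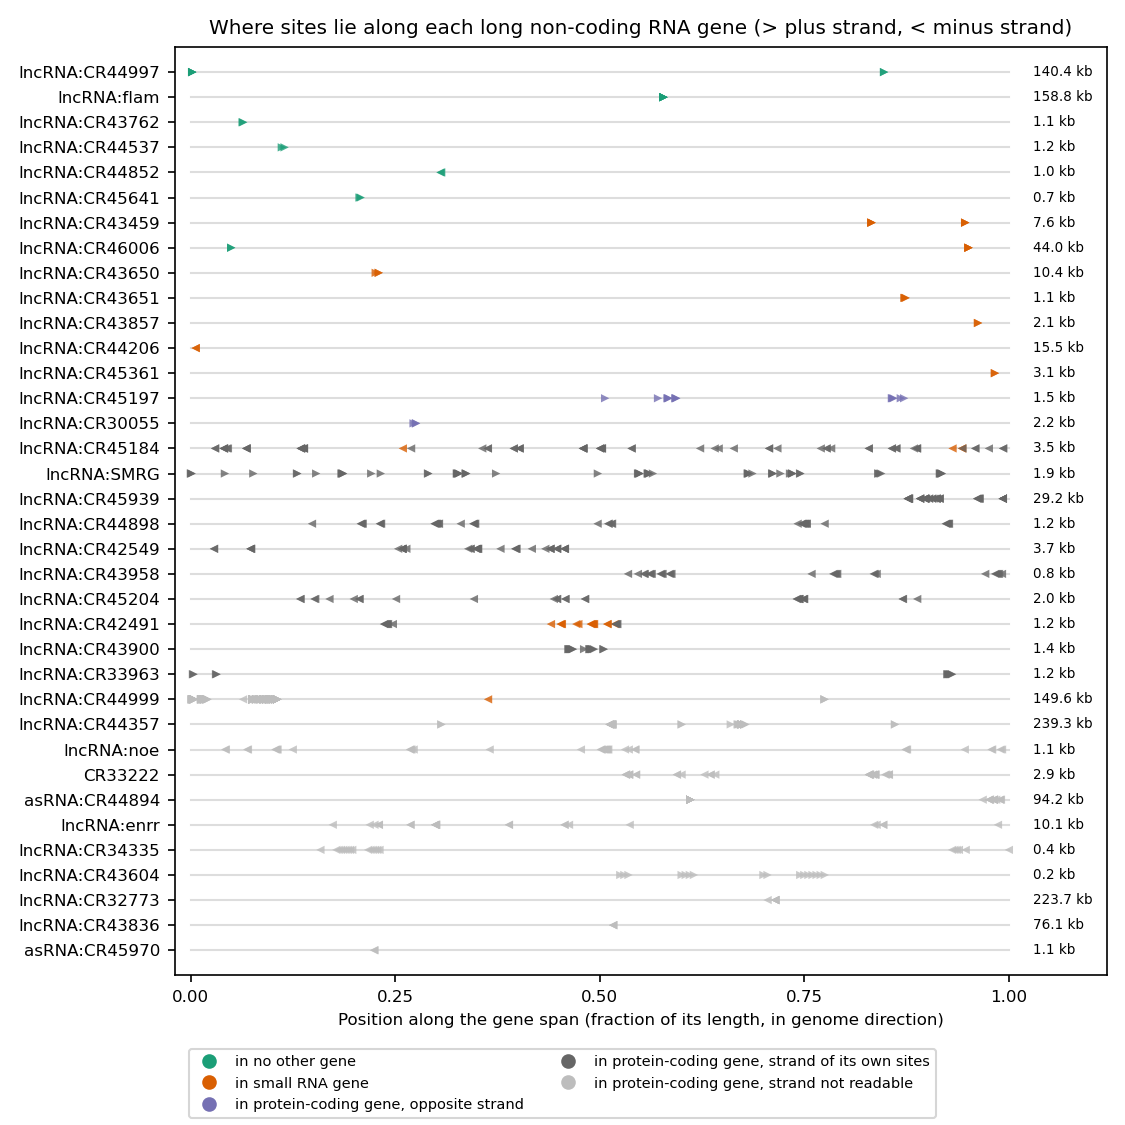
Position of every site along each of the 36 genes, as a fraction of the span in genome direction (right- and left-pointing markers for plus and minus strand, span length at the right), coloured by what else the site lies in. Sites of the microRNA hosts and of flam fall in 1 or 2 spots, whereas lncRNA:SMRG and lncRNA:CR45184 carry sites along most of their length.

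By the strand read from unshared sites, all sites of 2 genes lay opposite to the surrounding protein-coding gene. That reading rests on 8 sites for sgg and 200 for Sin3A, and no annotated strand was available to check it. lncRNA:CR45197 lies wholly within sgg, which encodes the kinase GSK3 of Wnt signalling. It had 13 sites between 2675932 and 2676469 on X, all on the plus strand, whereas the 8 sites in the rest of sgg were all on the minus strand. The scores of lncRNA:CR45197 had a median of 3.57 and reached 12.7, in 3 clusters of 1, 7 and 5 sites. lncRNA:CR30055 lies within Sin3A, the scaffold of a histone deacetylase complex. It had 3 sites on plus, between 12589826 and 12589833 on 2R, against 200 sites on minus in the rest of Sin3A. Its scores of 0.424 to 0.855 were all below the lower quartile of the list, and its median of 0.536 was the lowest among the 36 genes.

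In 10 genes every site lay on the strand read for the surrounding protein-coding gene, in some cases within a snoRNA gene as well. These genes held 380 sites, 12 to 73 each, and their sites had a median score of 3.09. lncRNA:CR45184 led with 73 sites in Sf3b3, which encodes a splicing factor of the U2 snRNP. Of these, 4 lay in snoRNA genes, and 3 of the 4, in snoRNA:Me5.8S-G74, held the highest score of the gene, 25.8. lncRNA:CR42491 had 27 sites in the ribosomal protein gene RpL22, 15 of them in snoRNA:Psi18S-531, a guide of pseudouridylation. lncRNA:SMRG had 64 and lncRNA:CR33963 12 of the 179 sites of Tis11, which encodes a protein that promotes decay of AU-rich mRNAs. lncRNA:CR45939 had 45 in ftz-f1, a nuclear receptor gene, and lncRNA:CR44898 had 42 in robo2, a receptor gene for the guidance cue Slit. lncRNA:CR42549 had 39 in mura, a ubiquitin ligase gene. lncRNA:CR43958 had 29 in Tdg, lncRNA:CR45204 29 in Imp, which encodes an RNA-binding protein, and lncRNA:CR43900 20 in the calmodulin gene Cam. Each of these 9 protein-coding genes was on the target list too.

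In the remaining 11 genes the strand of the protein-coding neighbour could not be read, since too few of its sites lay outside other genes or, for DIP-alpha around lncRNA:CR34335, such sites lay on both strands. They held 402 sites. lncRNA:CR44999 spans Myc, the growth regulator, and 191 of its 195 sites lay in Myc, 190 of them on plus. Its other 4 lay in CG10803 (3) and in tRNA:Gln-TTG-2-1 (1). lncRNA:CR44357 spans 239347 nt, and its 39 sites fell in the genes within it: 14 on minus in unc-119, 19 on plus in Dok, 2 on plus in brk, 2 on plus in Cph and 2 on plus elsewhere in CG1677. asRNA:CR44894 had 13 sites on plus in CG43902 and 14 on minus in Ypel. lncRNA:CR32773, which spans 223710 nt, had only 6, all in Usf, with scores of at most 0.808. lncRNA:CR43836 had 3 in rdgA, the diacylglycerol kinase gene of photoreceptors. In these long genes no site fell outside the protein-coding and tRNA genes they span.

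CR33222 and lncRNA:enrr belong to the same group. CR33222 shares its 32 sites with RpS6, a ribosomal protein gene that lies almost wholly inside it and whose sites are the same 32. lncRNA:enrr shares its 24 sites, all on minus, with elav, the neuronal RNA-binding protein gene, and with arg. elav was on the target list and had no site outside lncRNA:enrr, so the sites cannot be given to one gene or the other. arg, with the same 24 sites in its span, was not on the list.

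Among short genes nested in a long protein-coding gene, a few held nearly all the contacts of the locus. lncRNA:noe had 37 sites between 17400317 and 17401339 on the minus strand of 3L, in 11 clusters, with a median score of 9.12 and a highest of 44.3. Its host blot, which encodes a transporter-like membrane protein, had 2 further sites in the other 24407 nt of its span. Both were also on minus, and their median score of 21.5 was higher than that within lncRNA:noe. Site density was 34.4 per kb within lncRNA:noe and 0.0819 per kb in the rest of blot, a ratio of 419. lncRNA:CR43604, a gene of 201 nt within dachs, had 16 sites in a single cluster between 8485830 and 8485880 on the plus strand of 2L, or 79.6 per kb. dachs, an atypical myosin gene of the Fat pathway, had no site in the other 21654 nt of its span, and it was listed as a target under its older symbol d.

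lncRNA:CR34335 had high scores as well as a high density. Its 21 sites on the minus strand of X fell in 2 clusters, 15 between 3545807 and 3545833 and 6 between 3546085 and 3546110. The median score was 44.7, and 12 sites scored above 40, of 23 such sites in all 36 genes. DIP-alpha, the cell surface protein gene that spans it, had 10 sites elsewhere, 7 on plus and 3 on minus, with a median score of 8.91. Density was 58.2 per kb within lncRNA:CR34335 and 0.156 per kb in the rest of DIP-alpha, a ratio of 373.

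asRNA:CR45970 had only 2 sites, at 22879514 and 22879515 on the minus strand of 3L, with scores of 13.6 and 77.9. The score of 77.9 was exceeded only by that in mir-34 among the sites of the 36 genes. Both lay in Ssl1, a gene of a subunit of the transcription factor TFIIH, which had no other site and was not on the target list. In all, 30 protein-coding genes shared a site with one of the 36, of which 23 were targets. The 7 others (Ssl1, rdgA, Cph, brk, CG12535, CG10803 and arg) had no site outside the non-coding gene.

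Density within nested genes was set beside that of the rest of the surrounding gene in 14 pairs, those of non-coding genes up to 10000 nt with at least 1000 nt of the protein-coding span left over. In 13 pairs the rest held a site, and density was higher in the non-coding gene in 9 of these, with ratios from 0.108 to 419 and a median of 4.84. Ratios were 48.8 for lncRNA:CR45197 in sgg, 6.46 for lncRNA:CR44898 in robo2, 6.32 for lncRNA:SMRG in Tis11, 5.74 for lncRNA:CR45204 in Imp and 4.84 for lncRNA:CR43900 in Cam. They were below 1 for lncRNA:CR42491 in RpL22 (0.839), lncRNA:CR42549 in mura (0.660), lncRNA:CR45184 in Sf3b3 (0.659) and lncRNA:CR30055 in Sin3A (0.108). The median score was higher within the non-coding gene in 3 of the 13 pairs, those of lncRNA:CR34335, lncRNA:CR44898 and lncRNA:SMRG. The rest of each span includes introns, which were not separated here, and the 2 pairs in Tis11 share a host. All the non-coding genes compared were taken from the target list, and each held at least 2 sites. Nested genes with no site were therefore left out, and this choice by itself favours a higher density in the non-coding gene.

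**Figure D3:**
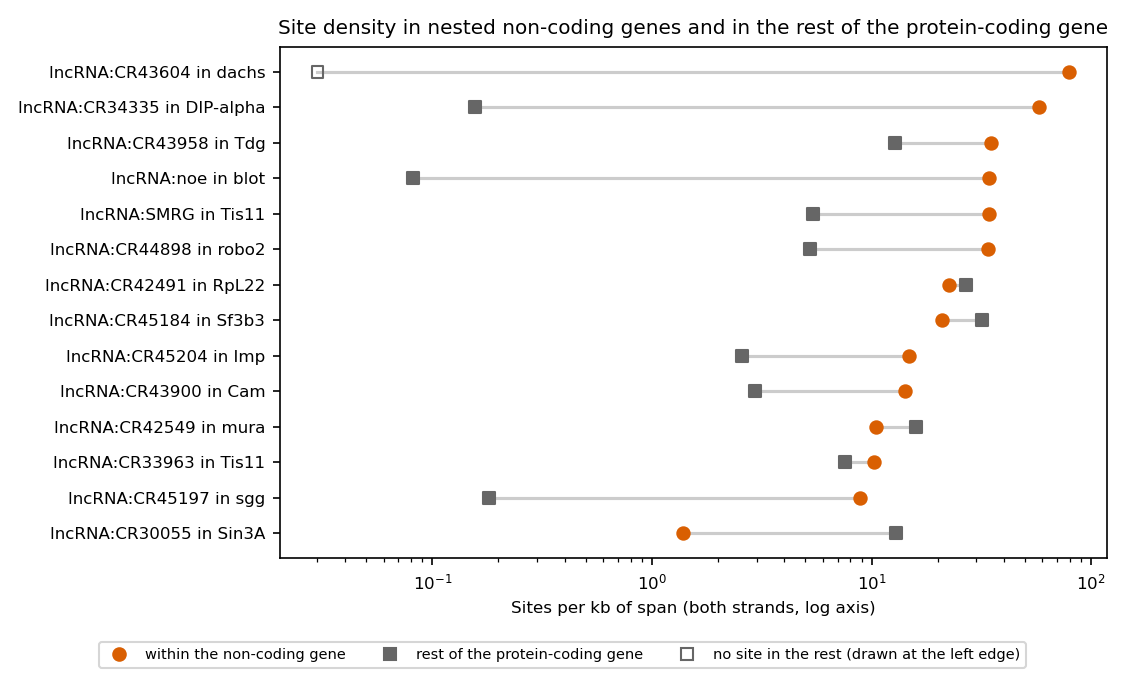
FMRP sites per kb of span (log axis) within 14 nested non-coding genes (orange circles) and in the rest of the protein-coding gene around each (grey squares, open where no site was found). The circle lies to the right of a filled square in 9 of 13 pairs, farthest for lncRNA:noe at 34.4 against 0.0819 per kb.

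Across the target list, the 36 genes had fewer sites per kb than small RNA genes. Their median was 1.90 sites per kb (quartiles 0.548 and 14.4), against 40 in microRNA genes, 79.6 in snoRNA genes and 2.53 in protein-coding genes (quartiles 1.02 and 6.27). Length was not matched: the median span was 2135 nt in the 36 genes, 98 in microRNA, 137 in snoRNA and 7082 in protein-coding genes. A few sites in so short a span already give a high density. Of the 11 microRNA genes, 8 held sites that are counted in the 36 as well. Among genes up to 5000 nt, the median was 10.5 per kb in 23 long non-coding genes and 4.13 in 586 protein-coding genes. Their median spans still differed, at 1196 and 2870 nt. Every site was also in some other gene for 19 of the 23 (82.6%), against 91 of the 586 (15.5%). The density of the 23 is therefore mostly that of shared sequence. Each of the 36 held at least 2 sites, so a short gene among them cannot have a low density. The same floor held for the 586 protein-coding genes, except for 1 that had no site in its span. The median of the gene medians of the score was 5.09 in the 36 genes, with quartiles of 2.45 and 9.35. It was 2.31 in protein-coding targets, with quartiles of 1.61 and 3.50. Within the 36 this median differed by context, at 11.8 in the 7 microRNA hosts and 6.31 in the 6 genes outside other genes. It was 3.31 in the 11 genes whose neighbour had no readable strand. On the strand of the protein-coding gene it was 2.49 (10 genes), and on the opposite strand 2.05 (2 genes).

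**Figure D4:**
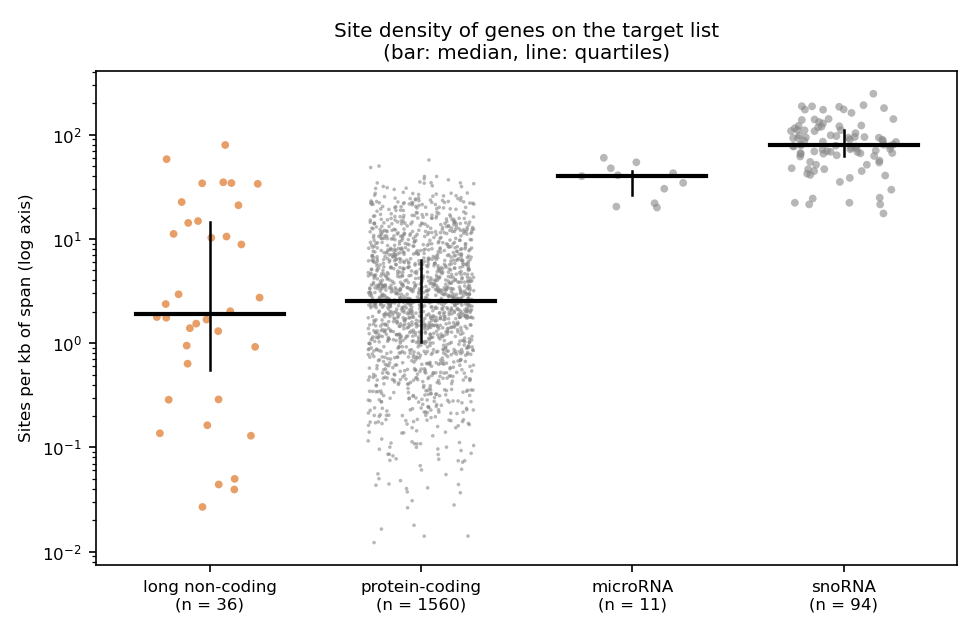
FMRP sites per kb of span (log axis) for genes on the target list, with 1 point per gene, a bar at the median and a line between quartiles. The 36 long non-coding genes have a median of 1.90 per kb, beside 2.53 in protein-coding, 40 in microRNA and 79.6 in snoRNA genes.

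Exactly 2 sites were found in 8 of 36, against 57 of 1560 protein-coding targets (3.65%), and at least 10 sites in 19 of 36, against 1080 of 1560 (69.2%). In 7 of the 8 the 2 sites lay on adjacent bases, and in the other, lncRNA:CR44537, they spanned 5 nt. The median of the median score was 12.7 in these 8 genes, with quartiles of 6.43 and 14.6. It was 5.64 in the 57 protein-coding targets with 2 sites, with quartiles of 1.92 and 14.1. Among the 8, the medians in microRNA hairpins were 13.7 (lncRNA:CR43857), 13.8 (lncRNA:CR44206) and 11.8 (lncRNA:CR45361), and that in Ssl1 was 45.8 (asRNA:CR45970). Those with sites in no other gene were 16.9 (lncRNA:CR43762), 6.55 (lncRNA:CR44852), 6.07 (lncRNA:CR45641) and 5.64 (lncRNA:CR44537). With 2 or 3 sites the median of the median score was 10.1 in 12 long non-coding genes and 2.87 in 113 protein-coding ones. No gene of either class was on the list with 1 site.

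**Figure D5:**
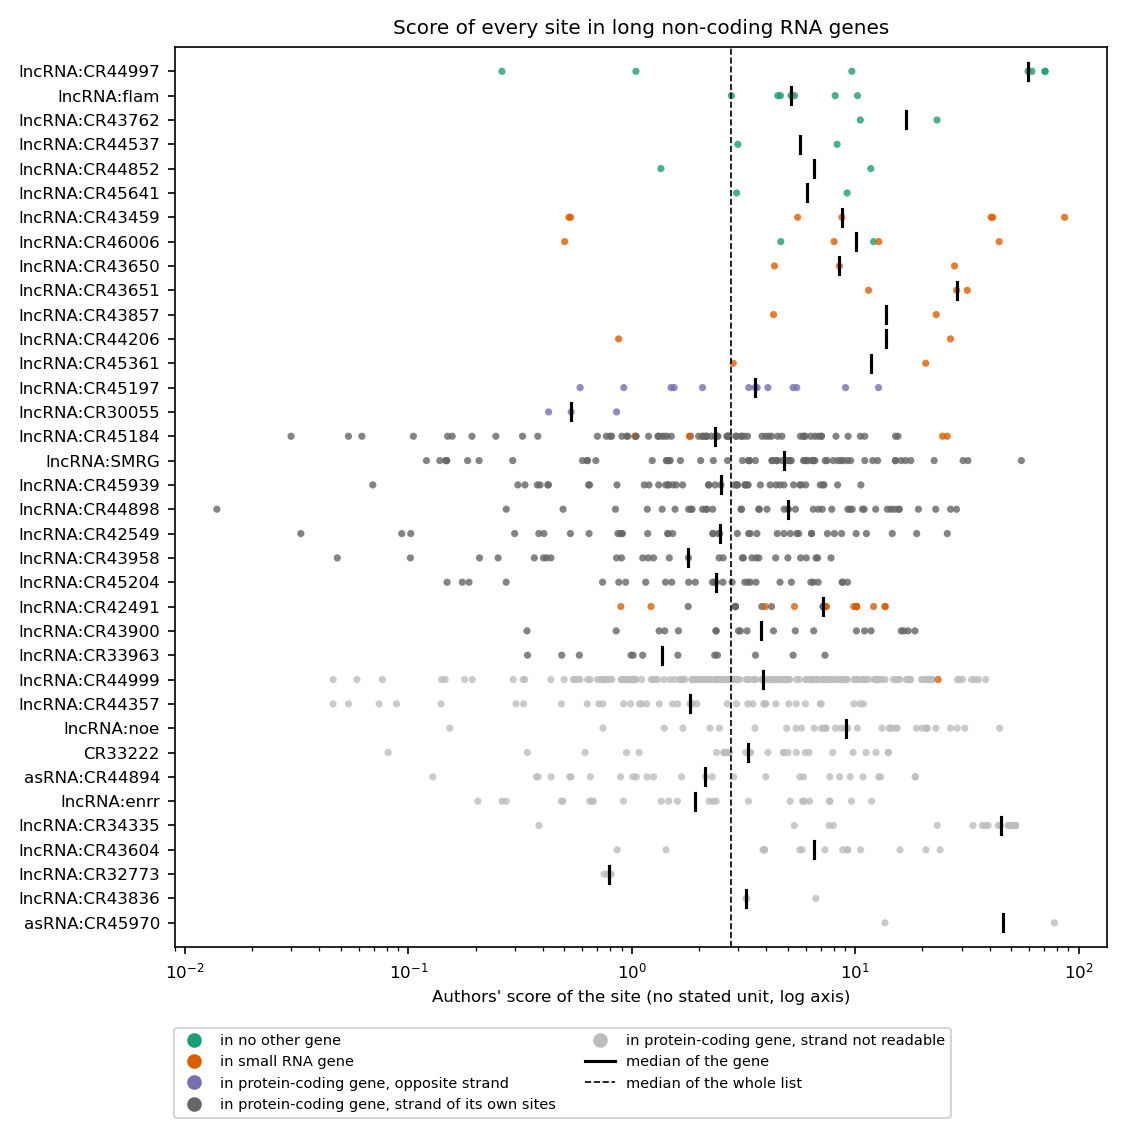
Score of every site (log axis, no stated unit) in each of the 36 genes, coloured by what else the site lies in, with a bar at the median of the gene and a dashed line at the median of the whole list, 2.78. The medians of all genes with sites outside other genes or in microRNA hairpins lie above the dashed line, and lncRNA:CR30055 and lncRNA:CR32773 lie wholly below it.

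Sites were packed in short clusters. With sites at most 20 nt apart joined, the 845 sites formed 255 clusters, of which 80 were single sites. The cluster with most sites held all 20 sites in the span of lncRNA:CR43900, between 12260057 and 12260118 on 2R. These sites also lie in Cam, on the strand read for it, and cannot be given to the non-coding gene. In 14 genes all sites lay in 1 cluster. Most of these 14 genes had only 2 or 3 sites, and the same count is not given for protein-coding targets. The median number of sites per cluster was 3 in the 36 genes and 2.8 in protein-coding targets.

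Long non-coding genes on the list were a small part of those annotated. Of 2499 lncRNA and antisense RNA genes in the gene table, 117 had a site in their span (4.68%) and 41 were on the target list (1.64%), the 35 here and 6 snoRNA host genes. Without the host genes, 33 of 1996 lncRNA genes (1.65%) were on the list, and 2 of 503 antisense genes (0.398%) were, although a site in the span was found in 44 antisense genes. For comparison, 1560 of 13962 protein-coding genes were targets (11.2%).

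The 76 genes with a site that were not on the list had 2.5 sites at the median and at most 46, in asRNA:CR44969. In 55 of them every site lay in a protein-coding span. Of their 521 summed sites, 307 lay on the strand read for the protein-coding gene and 0 on the opposite strand, and for 170 that strand could not be read. lncRNA:CR43130, with 41 sites in aqz, is an example of a gene left off the list whose sites are placed like those of the 10 listed genes above. Sites in no other gene were found in 7 listed genes, 24 sites with a median score of 8.21, and in 15 genes off the list, 20 sites with a median score of 3.05. Of these 15, 10 had a single site in the span.

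Well-studied fly long non-coding RNAs were looked up by name. Of 14 names looked up, 11 matched the gene table, 2 (flam and noe) were targets and 7 had 0 sites. These 7 were roX1 and roX2, the RNAs of the dosage compensation complex that raises transcription of the male X, Hsromega, which organises omega speckles in the nucleus, iab8, cherub, yar and Vinr. let7C, the host of let-7, had 1 site, in the mir-let7 gene, and CRG had 4, all in CASK. Depth is unknown, so a count of 0 shows only that no site was listed.

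Of 8 dosage compensation genes, 3 were targets: Unr, an RNA-binding translational regulator, with 300 sites, the master gene of sex determination Sxl with 81, and Clamp, whose protein binds GA repeats, with 9. The core complex genes msl-1, msl-2, msl-3 and mle had 0 sites, and mof, a histone acetyltransferase gene, had 2 and was not listed. Of 8 genes of omega speckle and related RNA-binding proteins, 4 were targets, with 201 sites in sqd, 187 in Hrb27C, 26 in Hrb98DE and 12 in Pep. Hrb87F and nonA had 0 sites, and glo and heph had 1 each. Over all 13962 protein-coding genes the share of targets was 11.2%. Both sets are short lists picked by name, and neither was tested against that share.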

How the data were processed

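Per the labels' protocols, 3 samples of 200 flies each gave 2 FMRP immunoprecipitates and 1 size-matched input. Tools, per the submitters' processing notes and in no stated order or role, were STAR 2.7.3a, cutadapt 2.9, DESeq2, SAMtools 1.10 and UMI-tools. The authors deposited 1 list of sites with a score per site and 1 list of target gene names. The sources used here do not give the site caller, genome build, pooling, use of the input or rule for targets. The name of the site list holds INnorm, which may mean normalised to input.

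Names were matched to the RefSeq gene table of Drosophila Release 6 by symbol (all 36); 11 other target names were settled by hand. All 36 genes held a site as deposited, and 10 did after moving spans by 100000 nt in either direction. Gene boundaries are not printed because the site list names no build. The table gives neither strand nor exons, so the planned count on a gene's own strand became a count within the span, with the strand of sites given beside it. No genome or sequence table was used, so no sequences are shown. There were no tests, since there are no values per library and genes are not replicates. Members and lists were chosen with earlier results of these data known. Counting functions were tested on simulated data. All 36 genes are named, which covers the naming rule (known RNAs, then genes by sites in no other gene, density and absence of sites). Python 3.11.15 and pandas 2.3.3 were used.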

Additional observations from a re-analysis of the deposited data

How the results depend on the processing

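No value rests on replicates, because the deposited lists hold none; depth is unknown. No paired analysis was possible because no column carries a library or a replicate number. Counting sites in no other gene reduced the summed sites of the 36 genes to 24 (845 in the span), the genes with a site to 7 and those with at least 10 sites to 0. With it the median density was 0 per kb (1.90 with all sites), and the median of gene medians of the score was 6.55 (5.09 with all sites). With only sites at or above the median score of the list, the summed sites were 490 and the median density was 1.72 per kb. With the highest score of each gene, the median was 19.6. The strand with most sites of each gene (816 sites; chosen after seeing the data), spans widened by 200 nt (891), overlap of at least 0.5 of the span (22 genes, against 23) and joining of sites up to 50 nt apart (195 clusters) kept their counts within 1.5 times. Exonic length, and small RNA genes by strand, were not run, because the gene table has neither exons nor strands.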
